A study of Homo sapiens with 17 samples.

Results

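Microtubules are hollow polymers of paired alpha and beta tubulin. Each tubulin exists as several isotypes from separate genes, and developing neurons use a different mix from dividing cells. Gamma tubulin seeds new microtubules. In neurons, proteins such as tau, MAP2 and doublecortin bind and stabilize the polymer, stathmins bind free tubulin and promote disassembly, and collapsin response mediators link guidance signals to the growing axon tip. The 33 genes described here are 5 alpha, 7 beta and 2 gamma tubulins, 7 structural microtubule-associated proteins, 2 of the doublecortin family, 4 stathmins, 5 collapsin response mediators and the growth cone gene GAP43. They were chosen by symbol, each matched 1 entry in both count tables, and they are 33 of 60662 genes in all.

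CHP-134 is an established human neuroblastoma line in which the oncogene MYCN is amplified. Of the culture libraries, 2 were from the solvent control (DMSO) and 2 each from exposures of 1, 3 and 6 days to ATRA, the all-trans form of retinoic acid, at 2 µM. In vivo, 5 libraries came from control tumors of luciferase-labeled CHP-134 cells under the skin of female athymic nude mice, which lack T cells, and 4 from such tumors of mice given 13-cis-retinoic acid by gavage at 25 mg/kg 2 times a day (RA tumors). Cells and tumors differ in compound, time, growth condition and library kit together, so these cannot be told apart. Totals were 31607051 to 39422897 counts in cells and 17266558 to 29078889 in tumors. The neuroblastoma markers HAND2 (296 to 297 CPM with DMSO) and GATA3 (316 CPM on average) were present, but TH and DBH, enzymes of catecholamine synthesis, stayed under 1 CPM on average in DMSO cells. Levels are counts scaled to library size (CPM) on 1 TMM scale over all 17 libraries. Fold changes come from edgeR's quasi-likelihood test in cells, in tumors or in all libraries, with FDR as its Benjamini-Hochberg adjusted p over all genes tested, and values after ± are SE for log2 fold changes and SD for levels. A gene was called higher or lower where its FDR was under 0.05 and its change exceeded 2-fold. All 33 genes passed the filter on low counts in every fit.

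Of the 33 genes, none was called at 1 day, 3 were higher at 3 days, and 12 were higher and 6 lower at 6 days. Of all 20237 genes tested at 6 days, 18.8% were called higher and 12.3% lower, beside 36.4% and 18.2% of these 33. The 12 that rose were TUBA1A, TUBB2B, TUBB3, TUBB4A, MAP6, MAP7, MAPT, DCX, STMN2, STMN4, CRMP1 and GAP43. The 6 that fell were TUBA1B, TUBA1C, TUBA8, TUBB4B, TUBB6 and TUBG1, all tubulins. With the FDR alone, 19 were higher and 13 lower (38.7% and 36.4% of all genes), and only TUBG2 was at neither side (log2 fold change 0.07 ± 0.058, FDR 0.293). The median log2 fold change was 0.58 over the 33 genes and 0.04 over all genes.

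**Figure D1:**
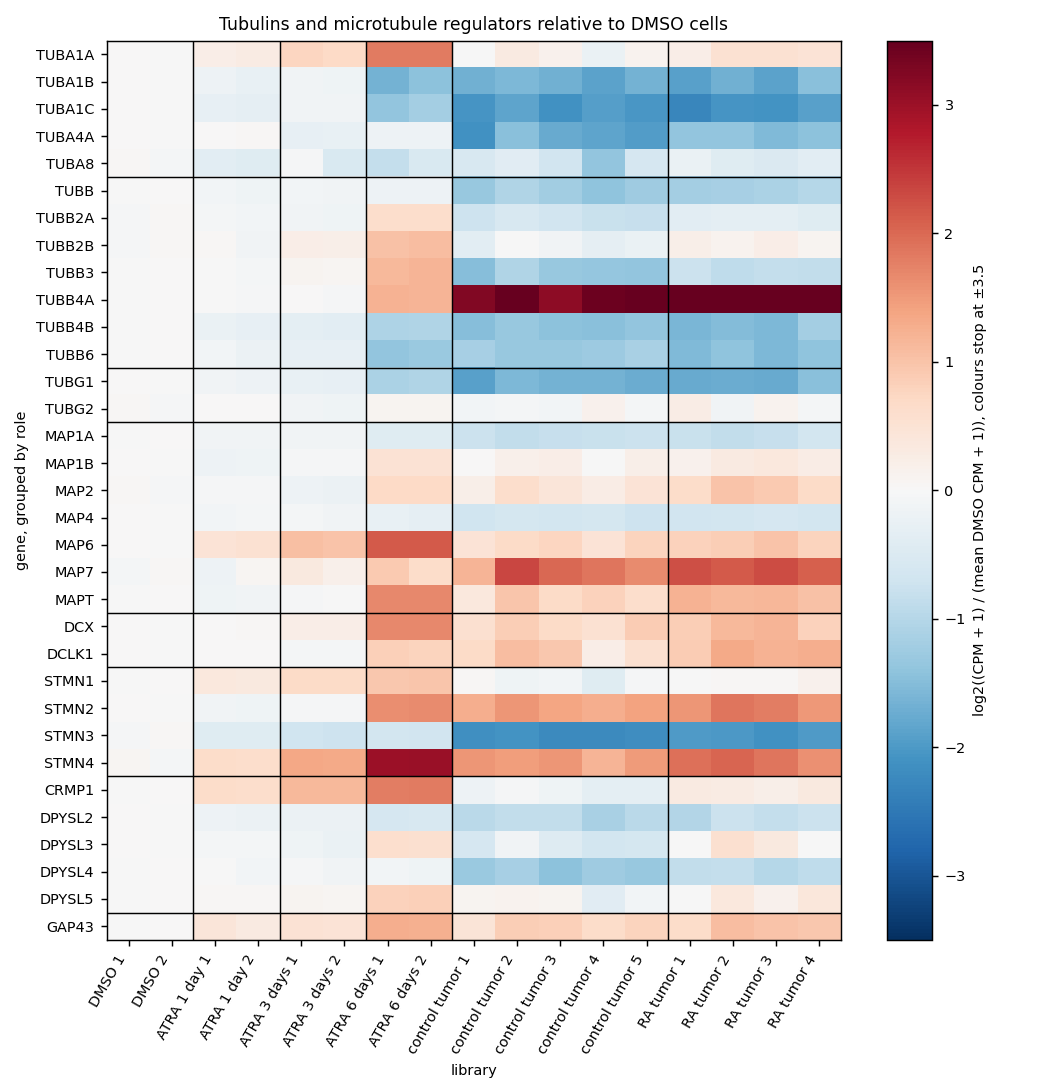
Each cell of the map is log2((CPM + 1) / (mean DMSO CPM + 1)) of 1 gene in 1 of 17 libraries, with genes grouped by role and red for values above DMSO. Tubulins split into red and blue rows at 6 days, TUBA1A against TUBA1B and TUBA1C, and TUBB4A is darkest in the tumors, where the colors stop at the end of the scale.

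Among the alpha tubulins, TUBA1A, the main isotype of young neurons, rose as TUBA1B and TUBA1C, which most dividing cells use, fell. The 3 genes lie together on chromosome 12 of hg38: TUBA1B (ENSG00000123416.15) at 49127782 to 49131397, TUBA1A (ENSG00000167552.14) at 49184686 to 49189080, and TUBA1C (ENSG00000167553.15) at 49188736 to 49274600. TUBA1C is on the opposite strand and its exons overlap those of TUBA1A. The promoters of TUBA1A and TUBA1B, and of the beta isotypes TUBB2B and TUBB4B, are shown because the members of each pair were called in opposite directions at 6 days. The sequences are RefSeq's (GRCh38.p14), from 250 to 11 bases before each gene's RefSeq start and read 5′ to 3′ on the gene's strand. For TUBB2B the window lies inside the gene as annotated in GENCODE 44 (3223324 to 3231730), whose start is farther upstream. Capitals mark the CCAAT box (the letters CCAAT) and the GC box (the letters GGGCGG) on either strand. The E box CAGCTG, the TATA box TATAAA and the receptor hexamer AGGTCA were sought in the same way and have no match in these 4 windows.
TUBA1A, chr12:49189091-49189330, minus strand: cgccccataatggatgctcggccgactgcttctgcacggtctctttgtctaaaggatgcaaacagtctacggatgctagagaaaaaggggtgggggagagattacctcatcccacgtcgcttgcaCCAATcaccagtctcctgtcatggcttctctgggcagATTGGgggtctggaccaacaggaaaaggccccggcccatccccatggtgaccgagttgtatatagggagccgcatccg
TUBA1B, chr12:49131406-49131645, minus strand: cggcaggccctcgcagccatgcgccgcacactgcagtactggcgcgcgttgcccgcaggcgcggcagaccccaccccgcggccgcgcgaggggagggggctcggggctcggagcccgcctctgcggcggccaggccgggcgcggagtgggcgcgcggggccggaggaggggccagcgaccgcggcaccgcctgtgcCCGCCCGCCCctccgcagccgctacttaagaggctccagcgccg
TUBB2B, chr6:3227664-3227903, minus strand: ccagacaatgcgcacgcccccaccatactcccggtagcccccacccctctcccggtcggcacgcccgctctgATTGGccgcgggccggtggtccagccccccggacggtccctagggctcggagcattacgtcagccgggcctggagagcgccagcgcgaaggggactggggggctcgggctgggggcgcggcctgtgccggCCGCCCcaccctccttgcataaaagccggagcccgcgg
TUBB4B, chr9:137241037-137241276, plus strand: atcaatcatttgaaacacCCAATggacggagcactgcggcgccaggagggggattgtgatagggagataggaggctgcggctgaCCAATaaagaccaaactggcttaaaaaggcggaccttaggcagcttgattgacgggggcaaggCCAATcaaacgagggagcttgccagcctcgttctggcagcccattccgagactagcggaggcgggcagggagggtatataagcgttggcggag

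TUBA1A has 2 CCAAT and no GGGCGG, TUBA1B has 2 GGGCGG and no CCAAT, TUBB2B has 1 of each, and TUBB4B has 3 CCAAT. So neither motif separates the pair members by direction. The table held the promoters of 28 of the 33 genes. CCAAT was in 12 of the 28 (42.9%) and in 32.5% of all 27305 promoters, and GGGCGG in 16 (57.1%) and 41.0%. The median share of G and C letters was 68.1% in the windows of the 28 and 57.5% over all promoters. The motif shares do not allow for that. AGGTCA, the hexamer of retinoic acid receptor sites, was in 4 (14.3%) and 11.8%. The matches are a description of the letters only.

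TUBA1A stood at 1184 and 1179 CPM with DMSO, 1379 and 1438 CPM at 1 day, 1976 and 1926 CPM at 3 days and 4141 and 4138 CPM at 6 days. Its libraries did not overlap between any 2 culture groups, and each time was above the last. The 6-day rise was 3.42-fold (log2 fold change 1.78 ± 0.021, FDR 5.10e-38). TUBA1B stood at 1976 and 1974 CPM with DMSO, 1762 and 1643 CPM at 1 day, 1814 and 1789 CPM at 3 days and 625 and 735 CPM at 6 days. Its 1-day and 3-day levels did not pass the FDR against DMSO, and it fell 2.97-fold by 6 days (log2 fold change −1.57 ± 0.087, FDR 7.43e-05). TUBA1C stood at 226 and 219 CPM with DMSO, 183 and 179 CPM at 1 day, 206 and 206 CPM at 3 days and 84.5 and 97.9 CPM at 6 days. Its 6-day libraries were the lowest, a fall of 2.50-fold (FDR 1.50e-06). TUBA4A, a minor isotype, was at 71.1 and 70.7 CPM with DMSO, 71.2 and 73.2 CPM at 1 day, 58.4 and 59.03 CPM at 3 days and 62.0 and 62.9 CPM at 6 days, and its change at 6 days (log2 fold change −0.22 ± 0.037) did not pass the fold threshold. TUBA8 was at 2.67 and 2.41 CPM with DMSO and 0.991 and 1.44 CPM at 6 days (2.13-fold lower, FDR 0.000108), and its call was lost without ATRA 6-day library 1 (log2 fold change −0.86).

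Since these tubulins share long stretches of sequence, RSEM split their reads, and the counts of TUBA1A, TUBA1B and TUBA1C were not whole in any of the 17 libraries. With the 3 genes summed, the 6-day log2 fold change was 0.51 ± 0.018 (FDR 1.53e-24), so the total rose by less than 2-fold while its parts diverged. Per kb of transcript, TUBA1A made up 34.7% ± 0.0256 of alpha tubulin with DMSO, 42.4% ± 1.83 at 1 day, 49.1% ± 0.232 at 3 days and 83.7% ± 1.47 at 6 days (n = 2 each). TUBA1B went from 59.6% ± 0.104 to 14.1% ± 1.38 over the same 6 days. The order of the pair thus turned over between DMSO and 3 days, when TUBA1B was at 46.6% ± 0.180. Shares are of expected counts within a library, so they do not depend on the scaling between libraries. The summed level of alpha tubulin rose from 3453 ± 10.8 to 4974 ± 85.8 CPM, and that of beta tubulin from 4943 ± 83.3 to 6381 ± 133 CPM.

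**Figure D2:**
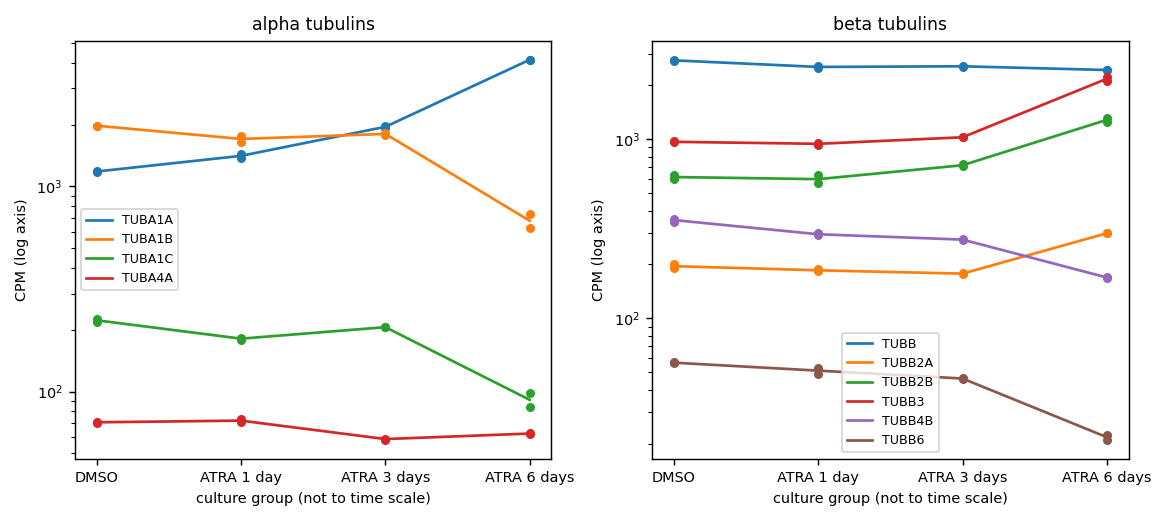
Points are the CPM of single libraries of cells (log axis) and lines join the means of the 2 libraries per group for alpha tubulins at left and beta tubulins at right, leaving out the scarce TUBA8 and TUBB4A. TUBA1A crosses above TUBA1B by 3 days, and TUBB3 nears TUBB, which is close to flat, at 6 days.

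Among the beta tubulins, the neuronal isotype TUBB3 (chromosome 16, 89921392 to 89938761) rose from 967 ± 11.0 CPM with DMSO and 1025 ± 2.12 CPM at 3 days to 2174 ± 71.5 CPM at 6 days. The 6-day change was 2.20-fold (log2 fold change 1.14 ± 0.021, FDR 1.06e-32), and its exons overlap those of 1 other annotated gene on the same strand. TUBB2B, another isotype of developing neurons, rose 2.04-fold, from 615 ± 23.7 to 1282 ± 38 CPM (FDR 4.46e-05). That call lies at the threshold and was lost without DMSO library 1 (log2 fold change 0.98) or ATRA 6-day library 2 (0.99), with no filter on low counts (0.98), and with its near-identical neighbor TUBB2A summed into it (0.93 ± 0.044). TUBB2A alone was at 196 ± 7.04 and 299 ± 0.440 CPM (log2 fold change 0.58 ± 0.025), under the fold threshold.

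The broadly expressed TUBB, the most abundant beta tubulin in DMSO cells, was at 2754 ± 31.7 CPM with DMSO and 2433 ± 21.8 CPM at 6 days, a log2 fold change of −0.21 ± 0.018. TUBB4B, an isotype of many dividing and ciliated cells, fell 2.14-fold from 354 ± 9.22 to 169 ± 1.68 CPM (FDR 1.12e-30), and TUBB6 fell 2.66-fold from 56.6 ± 0.517 to 21.7 ± 0.914 CPM (FDR 2.41e-24). Both fell at every step from DMSO to 1, 3 and 6 days with an FDR under 0.05, as did TUBG1, and of the 33 genes only these 3 did so. The calls of TUBB4B, TUBG1 and TUBA8 were lost with upper-quartile scaling (3 genes lower in place of 6), which put the median of all genes at 0.20 instead of 0.04.

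TUBB4A, the isotype of mature brain and myelin, was nearly silent in culture and was read in tumors. It stood at 0.0273 and 0.0312 CPM with DMSO, 0.0282 and 0 CPM at 1 day, 0.0331 and 0 CPM at 3 days and 1.39 and 1.35 CPM at 6 days. DMSO held 2 counts in all and 6 days held 84, a ratio of 46.9 (95% exact counting interval 12.6 to 394, counting error only). In control tumors 1 to 5 it stood at 8.80, 10.8, 8.05, 10.2 and 11.4 CPM, above every library of cells, a ratio to DMSO of 339 (93.5 to 2800). Its counts were not whole in 11 of the 17 libraries, those at 6 days and of tumors. RSEM thus split some of its reads with other genes, which the intervals leave out. Whether mouse reads were removed from the tumors is not known, and their part in its tumor levels was not tested.

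As shares of beta tubulin per kb, TUBB fell from 46.4% ± 0.290 to 30.1% ± 0.401 at 6 days and TUBB4B from 9.59% ± 0.0795 to 3.37% ± 0.0414. TUBB3 went from 24.0% ± 0.153 to 39.6% ± 0.420, and TUBB2B from 13.6% ± 0.282 to 20.8% ± 0.153. The gain of TUBB3 was 15.6 percentage points, and 10.3 with the length of all its annotated exons in place of the main transcript.

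**Figure D3:**
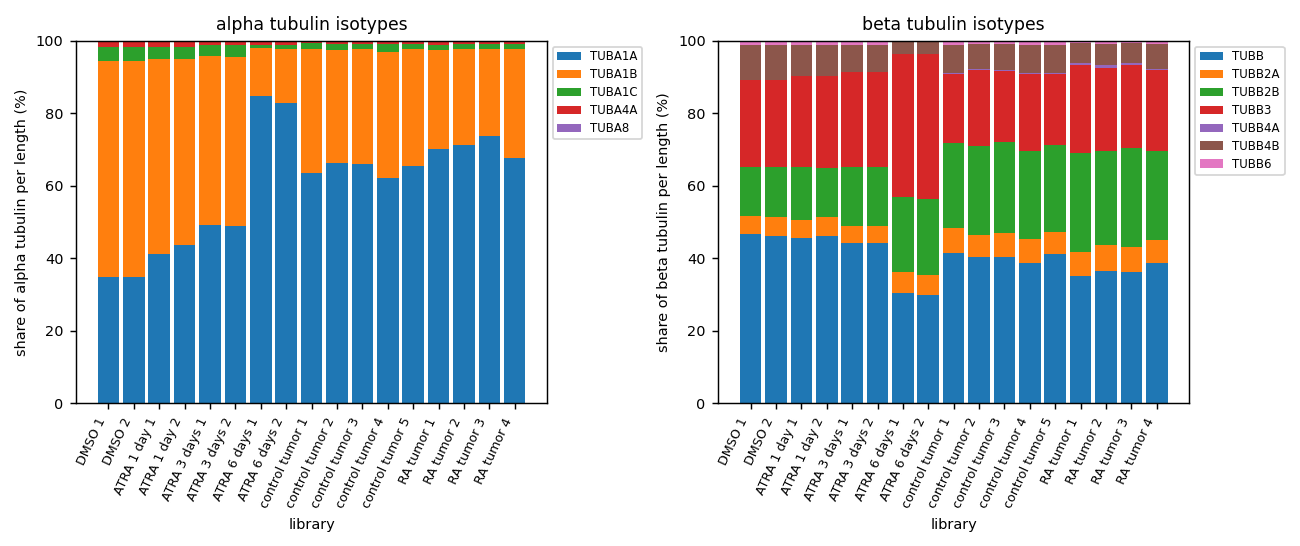
Each bar is 1 library, split by isotype as a share (%) of alpha (left) or beta tubulin (right) counts per kb. TUBA1A is 34.7% of alpha tubulin in both DMSO libraries and over 80% in both 6-day libraries, with tumors in between.

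TUBG1, the widely used gamma tubulin, stood at 255 and 248 CPM with DMSO, 231 and 219.9 CPM at 1 day, 209.8 and 206 CPM at 3 days and 117 and 121 CPM at 6 days. It fell 2.16-fold by 6 days (log2 fold change −1.11 ± 0.028, FDR 4.18e-29), whereas TUBG2, the gamma tubulin linked to brain, was at 24.3 and 23.1 CPM with DMSO and 25.5 and 25.4 CPM at 6 days. With TUBG1 and TUBG2 summed, the log2 fold change was −0.96 ± 0.027.

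Of the 7 structural microtubule-associated proteins, 3 rose at 6 days, and MAP6, which makes microtubules resistant to cold, led them among the well-expressed ones. MAP6 stood at 131 and 129 CPM with DMSO, 181 and 189 CPM at 1 day, 273 and 263 CPM at 3 days and 576 and 583 CPM at 6 days. No 2 culture groups overlapped, and the change was 2.11-fold at 3 days (FDR 9.90e-29) and 4.35-fold at 6 days (log2 fold change 2.12 ± 0.025, FDR 3.70e-39). MAPT, which encodes the axonal protein tau, followed another course, at 151 and 154 CPM with DMSO, 138 and 142 CPM at 1 day, 149 and 151 CPM at 3 days and 493 and 492 CPM at 6 days. It reached 3.15-fold (log2 fold change 1.66 ± 0.024, FDR 1.53e-36) and nearly all of that rise came between 3 and 6 days. An antisense gene overlaps its exons, so reads of the pair cannot be told apart without the strand setting used in counting, which is not given in the sources used here. The same limit holds for other genes here whose exons overlap those of a gene on the opposite strand. Among them are TUBA1A, TUBA1B, TUBA1C, TUBB, TUBB2B, TUBB4B, TUBG1, MAP7 and CRMP1. MAP7, a partner of the motor kinesin-1, was scarce at 0.246 and 0.344 CPM with DMSO, 0.141 and 0.363 CPM at 1 day, 0.630 and 0.466 CPM at 3 days and 1.42 and 1.03 CPM at 6 days, 4.05-fold higher with a wide error (log2 fold change 2.02 ± 0.408, FDR 3.61e-05). The dendritic MAP2 (0.67 ± 0.022) and the axonal MAP1B (0.47 ± 0.017) were higher by the FDR alone, and MAP1A (−0.46 ± 0.021) and the widely expressed MAP4 (−0.32 ± 0.027) were lower by the FDR alone.

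DCX, encoding doublecortin of migrating neurons, was at 284 ± 3.52 CPM with DMSO, 334 ± 0.151 CPM at 3 days and 913 ± 5.53 CPM at 6 days (3.14-fold, FDR 1.15e-37). Its relative DCLK1 was at a log2 fold change of 0.79 ± 0.033, under the fold threshold. The stathmins did not move as one. STMN4 stood at 11.8 and 10.6 CPM with DMSO, 18.1 and 17.6 CPM at 1 day, 30.1 and 29.4 CPM at 3 days and 96.3 and 98.7 CPM at 6 days. Each time was above the last, and the 6-day change of 8.49-fold (log2 fold change 3.09 ± 0.054, FDR 5.05e-34) was the largest of the 33 genes after TUBB4A. STMN2, the stathmin of axon growth and repair, was at 173 ± 1.29, 158 ± 2.89, 169 ± 0.739 and 540.4 ± 9.92 CPM with DMSO and at 1, 3 and 6 days, so that its 3.05-fold rise (FDR 1.57e-36) came after 3 days. STMN1 went from 1330.3 ± 14.8 CPM with DMSO to 2582 ± 3.35 CPM at 6 days (log2 fold change 0.92 ± 0.018), just under the fold threshold. STMN3 stood at 294 and 316 CPM with DMSO, 225 and 225 CPM at 1 day, 187 and 183 CPM at 3 days and 194 and 191 CPM at 6 days, the only stathmin that was lower (log2 fold change −0.69 ± 0.027).

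CRMP1, which acts in axon guidance, stood at 389 and 393 CPM with DMSO, 610.1 and 595 CPM at 1 day, 854 and 853 CPM at 3 days and 1359 and 1395 CPM at 6 days. It rose at every step, to 2.23-fold at 3 days (FDR 5.98e-33) and 3.44-fold at 6 days (log2 fold change 1.78 ± 0.021, FDR 1.53e-39). Of its 4 relatives, DPYSL5 (0.80 ± 0.024) and DPYSL3 (0.55 ± 0.027) were higher and DPYSL2 (−0.61 ± 0.020) and DPYSL4 (−0.15 ± 0.040) lower by the FDR alone, and the sign of DPYSL4 turned with upper-quartile scaling (0.01). GAP43, a growth cone protein, rose 2.37-fold from 39.2 ± 0.851 to 94.8 ± 1.97 CPM (FDR 3.86e-25).

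More than 1 course appears among the genes that rose. TUBA1A, MAP6, STMN1, STMN4, CRMP1 and GAP43 were higher at every step with an FDR under 0.05, and by 3 days CRMP1 had made 65.1% of its 6-day log2 change, MAP6 50.7%, STMN4 46.7%, GAP43 42.9% and TUBA1A 42.6%. At 3 days MAPT had made 0.497% of its own, STMN2 −0.0534%, TUBB3 10.4%, DCX 16.1% and TUBB2B 24.6%. From 3 to 6 days, 9 of the 33 genes were called higher and 3 lower (12.7% and 8.41% of all genes). From 1 to 3 days none was called in either direction (2.87% and 1.22% of all genes), while 23 had an unadjusted p under 0.05. At 1 day none was called by edgeR or by DESeq2, beside 1.95% of all genes higher and 0.791% lower by edgeR (21 had an unadjusted p under 0.05, edgeR), and with the FDR alone 6 were higher and 11 lower, beside 13.1% and 13.3% of all genes. The share of all genes under that unadjusted p is not given here, so the 23 and the 21 cannot be judged against it. At 3 days CRMP1, MAP6 and STMN4 were called higher (9.09% of the 33, 5.45% of all genes) and none lower (2.43% of all genes). With the FDR alone, 10 were higher and 11 lower at 3 days, beside 21.9% and 23.1%, and from 3 to 6 days 20 and 11, beside 34.0% and 34.1%. From 1 to 3 days 14 and 8 were so, beside 16.9% and 17.6%.

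Proliferation markers moved with these changes. The summed level of the 8 markers was 2744 to 2781 CPM with DMSO and 464 to 465 CPM at 6 days, and their part in the tubulin changes was not tested. Endothelium markers summed to 1.5 to 2.03 CPM with DMSO and 144 to 155 CPM at 6 days, of which CLDN5 alone was 149 CPM on average while PECAM1 was at 0.147 CPM, and their part was not tested either. In bulk samples, fewer cells of a type and less RNA per cell cannot be told apart. The study reports that most cultured cells die over the longest ATRA exposure and that the few survivors take on neuron-like features. Whether the 6-day differences from DMSO arose within cells or through the loss of other cells was not tested. Other microtubule genes were taken from 8 lists. All 16 spindle proteins fell at 6 days (median −2.43), AURKB from 102 to 14.2 CPM and KIF2C from 100.5 to 15.9 CPM on average. Of 18 nucleation and augmin genes 9 fell and none rose (median −1.01), with HAUS8 4.49-fold and HAUS7 3.57-fold lower. Of 31 end-binding and lattice-binding genes 8 rose and 3 fell, with TPPP3 12.6-fold and CLIP3 7.93-fold higher and EML1 2.91-fold and NDE1 2.71-fold lower. The counts of these lists stand beside 18.8% of all genes higher and 12.3% lower at 6 days, and the shares of end-binding and lattice-binding genes lie near those.

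Among 23 measured tail and lysine modifiers of 25 listed, 5 rose and 2 fell, shares that also lie near those of all genes. TTLL9 rose 5.17-fold, while TTLL12 fell 2.69-fold and TTLL4 2.31-fold, and TTLL6, which held 1 count over both DMSO libraries, was at 0.959 CPM at 6 days. Of 9 severing genes FIGNL2 rose 7.60-fold and FIGN (2.65-fold) and FIGNL1 (2.58-fold) fell. Of 15 kinases MAPK10 (2.54-fold) and CDK5R2, which activates the neuronal kinase CDK5 (2.01-fold), rose. No kinase of the list fell, and their median log2 fold change was −0.17, beside 0.04 over all genes. The call of CDK5R2 lies at the threshold. The counts of these lists too stand beside 18.8% of all genes higher and 12.3% lower, and the share of kinases that rose is under the former. None of 8 tubulin folding genes was called, and of 8 other tubulins only 2 were measured, of which TUBD1 fell 2.16-fold.

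In tumors, none of the 33 genes was called between RA and control tumors (0.246% of all genes were called higher and 0.0379% lower), and 20 had an unadjusted p under 0.05 by edgeR. The share of all genes under that unadjusted p is not given here, so the 20 cannot be judged against it. With the FDR alone, 10 of the 33 genes were higher and none lower, 30.3% beside 1.4% and 0.218% of all genes. These were TUBB2A, TUBB2B, TUBB3, TUBB4A, MAP2, MAPT, STMN4, CRMP1, DPYSL3 and DPYSL4, and in each the lowest of the 4 RA tumors was above the highest of the 5 control tumors. Libraries did not overlap, RA tumors higher, for 3.88% of all genes, and for lower for 1.93%, where TUBB6 was the only one of the 33.

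CRMP1 stood at 348, 379, 353, 307 and 308 CPM in control tumors 1 to 5 and at 488, 477, 455 and 499 CPM in RA tumors 1 to 4. The groups were well apart, a 1.41-fold difference (log2 fold change 0.50 ± 0.070, FDR 0.00401). TUBB3 was at 389 ± 46.8 CPM in control tumors (n = 5) and 541 ± 22.5 CPM in RA tumors (n = 4), 1.39-fold (FDR 0.0110). TUBB4A, after the control values above, stood at 17.6, 19.98, 17.01 and 12.5 CPM in RA tumors, 1.70-fold higher (FDR 0.0141) and the largest of the 10. RA tumor 4 was the lowest of its group for TUBB4A but still above the highest control tumor. DPYSL3 was 1.64-fold higher (116 ± 18.1 against 190.1 ± 37.9 CPM, FDR 0.0355). MAPT stood at 199, 299.7, 245, 268 and 234 CPM in control tumors and 357, 335, 344 and 310.1 CPM in RA tumors, 1.35-fold higher (FDR 0.0434). STMN4 stood at 34.5, 32.5, 34.3, 26.6 and 33.4 CPM in control tumors and 45.3, 48.8, 43.7 and 35.7 CPM in RA tumors, 1.34-fold (FDR 0.0465). In both TUBB4A and STMN4, RA tumor 4 was the lowest of its group. TUBB2A (1.27-fold), TUBB2B (1.3-fold), MAP2 (1.32-fold) and DPYSL4 (1.33-fold) were the other genes of the 10.

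**Figure D4:**
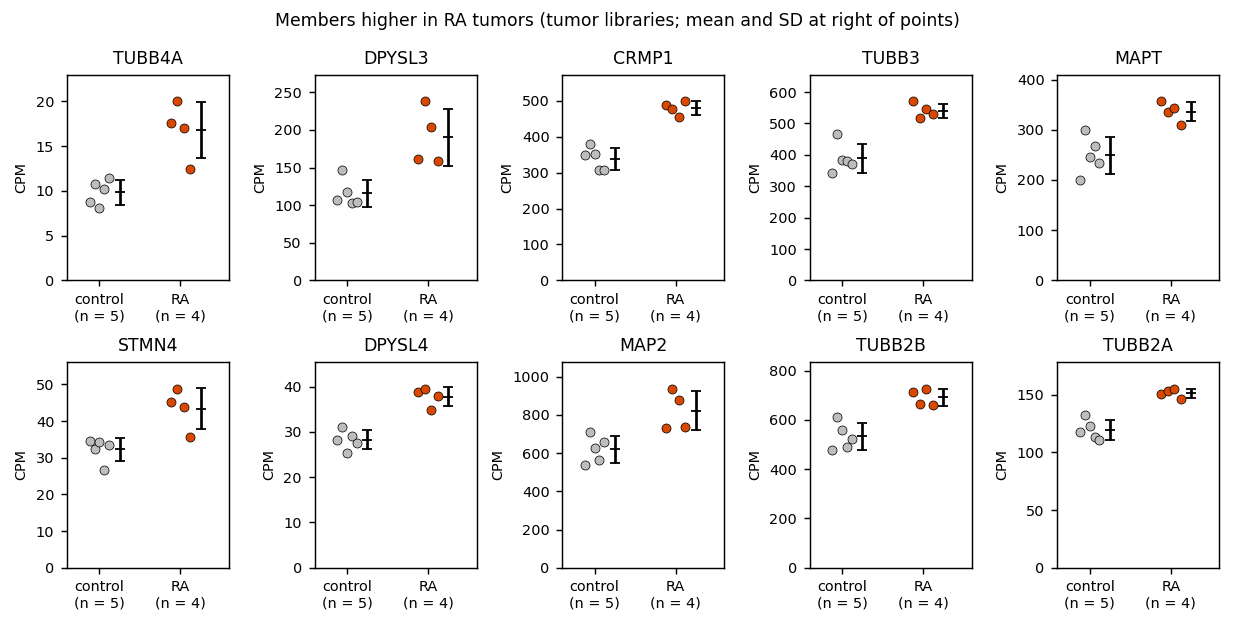
Points are single tumor libraries in CPM, 5 control and 4 RA, with mean and SD beside them, for the 10 genes with an FDR under 0.05, on axes from 0. In each panel all RA points lie above all control points, and no gene differed by more than 2-fold.

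The count of 10 depends on single libraries. It was 6 without control tumor 1, 5 without control tumor 3 or 5, 3 without RA tumor 1 or 3, and 2 without RA tumor 2, and it stayed at 7 to 12 without any other tumor. Skeletal muscle markers summed to 83.3 CPM in control tumor 1 and to at most 4.63 CPM in the other tumors. Fibroblast markers summed to 118 CPM in control tumor 4 and to 25.7 to 51.6 CPM in the others, and leukocyte markers to 1.93 to 4.10 CPM. Without control tumor 1, CRMP1 was at a log2 fold change of 0.51, TUBB3 at 0.43 and TUBB4A at 0.73, and these kept an FDR under 0.05. STMN4 (0.45), MAP2 (0.36), DPYSL3 (0.69) and MAPT (0.36) did not keep it there. Proliferation markers summed to 1451 to 1706 CPM in control and 1124 to 1601 CPM in RA tumors. The part of these cell types in the differences was not tested.

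The other 23 genes did not pass the FDR between tumors. TUBA1A stood at 1178, 1474, 1316, 1000.2 and 1296 CPM in control tumors and 1386, 1699.6, 1704 and 1649 CPM in RA tumors, so that RA tumor 1 lay among the control tumors (log2 fold change 0.36 ± 0.098, FDR 0.0874). TUBA1B stood at 613, 669, 612, 543 and 624 CPM and at 526, 617, 542 and 713 CPM, with no separation (−0.03 ± 0.086). TUBA1C was at 52.3, 61.6, 50.5, 57.7 and 53.6 CPM in control tumors and 45.0, 52.9, 51.8 and 59.4 CPM in RA tumors, and these ranges overlapped. MAP6 was at 182, 207, 221, 182 and 224 CPM in control tumors and 230.2, 237, 261 and 223 CPM in RA tumors, with 1 RA tumor just under the highest control (0.22 ± 0.076, FDR 0.169). MAP7 was at 1.94, 5.55, 4.21, 3.72 and 3.04 CPM in control tumors and 5.20, 4.75, 5.30 and 4.57 CPM in RA tumors. TUBA4A was at 15.5, 25.3, 20.2, 18.9 and 17.7 CPM in control tumors and 26.3, 26.7, 23.5 and 25.6 CPM in RA tumors, and RA tumor 3 lay within the control range. STMN3 was at 68.1, 71.0, 64.3, 64.6 and 66.6 CPM in control tumors and 75.7, 75.1, 69.8 and 76.1 CPM in RA tumors. TUBG1 was at 66.5, 83.5, 79.1, 78.9 and 74.9 CPM in control tumors and 73.6, 74.6, 72.6 and 91.1 CPM in RA tumors, and here too the groups overlapped. The share of TUBA1A in alpha tubulin was 64.7% ± 1.77 in control tumors (n = 5) and 70.6% ± 2.53 in RA tumors (n = 4), and that of TUBB3 in beta tubulin was 19.98% ± 1.01 and 23.1% ± 0.928.

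Control tumors differed from DMSO cells in 15 of the 33 genes, 4 higher and 11 lower (31.5% and 11.4% of all genes), and the median over all genes was 0.25 on the log2 scale. With the FDR alone, 10 were higher and 18 lower, beside 42.2% and 29.5% of all genes. Besides the 4 called higher, these 10 held DCLK1, DCX, GAP43, MAP2, MAP6 and MAPT. The study reports more tau, MAP2 and DCX protein in such xenografts than in untreated cultured cells. Of the 14 tubulins 9 were lower: TUBA1B 3.23-fold, TUBA1C 4.03-fold, TUBA4A 3.62-fold, TUBB 2.38-fold, TUBB3 2.48-fold, TUBB4B 2.69-fold, TUBB6 2.42-fold and TUBG1 3.28-fold, with TUBA8 2.09-fold. STMN3 was 4.56-fold and DPYSL4 2.51-fold lower. TUBB4A, MAP7 (12.5-fold), STMN4 (2.88-fold) and STMN2 (2.61-fold) were higher. Summed alpha tubulin was 3453 ± 10.8 CPM in DMSO cells and 1941 ± 224 CPM in control tumors, while TUBA1A was level (log2 fold change 0.08 ± 0.106, FDR 0.484). The calls of TUBB and TUBA8 were lost with upper-quartile scaling, which put that median at 0.51. The call of TUBA8 was also lost with total counts only (log2 fold change −0.87), without DMSO library 1 (−0.97) and without control tumor 4 (−0.81).

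Levels per kb of transcript give the order of abundance. With DMSO it began TUBA1B (1214 CPM per kb), TUBB (1095), STMN1 (922), TUBA1A (707) and TUBB3 (567), none of which overlapped the next. At 6 days it began TUBA1A (2476), STMN1 (1789), TUBB3 (1275), TUBB (968) and TUBB2B (667), again with no overlap between these neighbors. In control tumors it began STMN1 (842) and TUBA1A (749), whose libraries overlapped, and in RA tumors TUBA1A (963) and STMN1 (958), which overlapped too. MAP1B, the most counted structural protein, was at 286 CPM per kb with DMSO.

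The change in RA tumors and the 6-day change in cells were compared by their difference in 1 fit over all libraries. Of the 33 genes, 16 differed by call, 6 in the positive direction and 10 in the negative (7.78% and 13.1% of all genes), and with the FDR alone 13 and 16 (19.2% and 21.3%). The 10, which rose in cells, were CRMP1, DCX, GAP43, MAP6, MAP7, MAPT, STMN2, STMN4, TUBA1A and TUBB4A. The 6 were the tubulins that fell in cells. Of the genes called at 6 days in cells, only TUBB2B and TUBB3 are missing here. The difference uses the same DMSO and 6-day libraries, and none of the 33 genes was called between tumors. It therefore largely restates the 6-day calls. STMN4 differed most among well-measured genes, by −2.70 ± 0.154 (FDR 4.79e-11), and TUBA1B differed by 1.51 ± 0.142 (FDR 6.36e-08). Both effects had the same sign in 24 of the 33 genes (72.7%) and in 63.5% of 17961 genes, and 29 were higher in RA tumors (87.9%, beside 49.3%). The correlation was r = 0.69 and rho = 0.65 over the 33 genes, beside r = 0.37 and rho = 0.36 over the 17961 genes. It is across genes that share libraries and is a description, and TUBB4A, with 2 counts in DMSO, is among the 33.

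**Figure D5:**
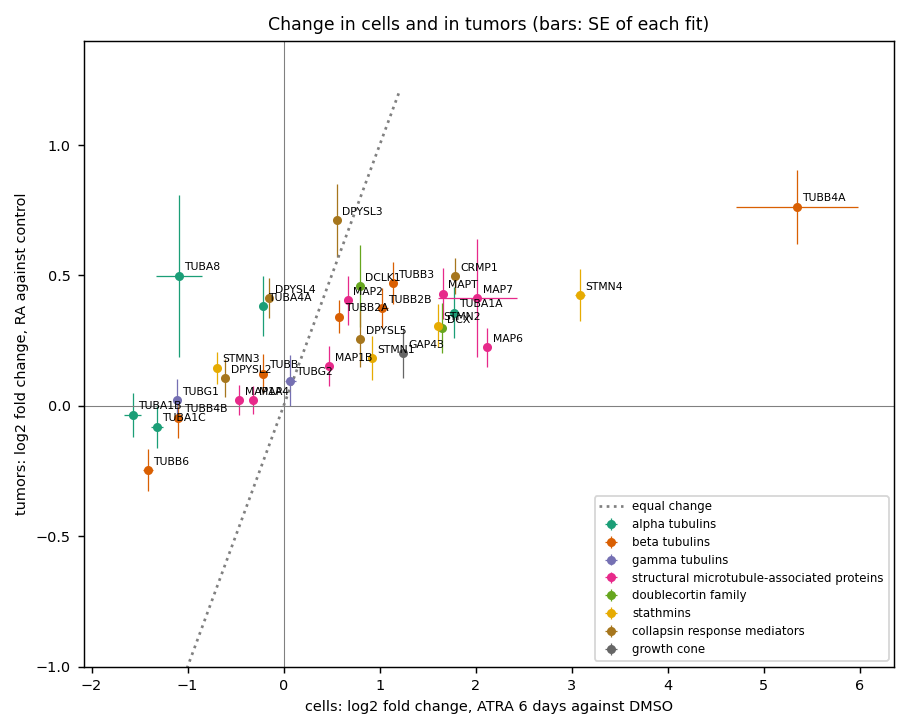
Each point is 1 of the 33 genes, with the log2 fold change at 6 days of ATRA in cells on the x axis, that of RA against control tumors on the y axis, SE bars and colors for role; the dotted line marks equal change. Most points lie nearer to 0 on the y axis than on the x axis, and TUBB4A, far right, rests on 2 counts in DMSO.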

How the data were processed

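Per the labels and the study's methods, the authors sequenced ribosome-depleted RNA of CHP-134 cells and xenograft tumors. The deposited values are expected counts per gene, estimated by RSEM 1.3.3 after Trim Galore 0.4.4 and STAR 2.7.10a on hg38. The annotation release, the strand setting and the removal of mouse reads are not given in the sources used here, and the kits for cells and tumors differed. Of the deposited expected counts, 7.55% in cells and 14.7% in tumors were not whole, and all were rounded. The 92 spike-in entries of the table of cells held 0 counts.

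Genes passing filterByExpr (edgeR 4.0.16, R 4.3.3, minimum count 10) were tested by edgeR's robust quasi-likelihood test with TMM scaling in 3 fits: 8 libraries of cells (20237 genes), 9 of tumors (21098 genes) and all 17 (25787 genes). P-values were adjusted by Benjamini-Hochberg over all genes of a fit. CPM are on 1 scale over 17 libraries, which was 1.04 to 1.09 times the scale of the fit of cells and 0.939 to 0.960 times that of tumors, so folds can differ from ratios of CPM. SE is the log2 fold change over the square root of F. Lengths are of the main transcript in GENCODE 44. In simulated counts the test recovered 85% of 1.5-fold and 99% of 4-fold changes at 6 days (100 each, 20237 genes). Between tumors it recovered 61% and 99% (21098 genes). Recovery there means an FDR under 0.05 in the right direction, without the fold threshold that calls also needed. Genes with few counts were not among those changed, and far fewer genes were changed than passed the FDR at 6 days. Library totals, 17266558 to 39422897, limit low genes most, and counting intervals cover counting error only.

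The members and lists were chosen with earlier results of these data known. Values in every library are given for most, not all, called members among the 12 with the largest change in a comparison against DMSO or between tumors. The rest are given by ranges, counts or means, and DCX, STMN2 and TUBB6 are among these. From each list of other microtubule genes at most the 2 largest rises and 2 largest falls called at 6 days are named. The study describes its pair of culture replicates as independent, without saying in the sources used here whether they were separate cultures, so p-values measure the spread between these libraries. Alternatives were DESeq2 1.42.0, other scalings, no filter, summed paralogs, a replicate block, other lengths and leaving out each library.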

Additional observations from a re-analysis of the deposited data

Results flagged for a closer look

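Of 66 groups of 4 or 5 tumor libraries, 6 had a library far from the others, where chance gives about 1 in 20. RA tumor 4 was the highest of its group for TUBB4B, at 154 CPM with the next at 123 CPM, and for TUBG1, at 91.1 CPM with the next at 74.6 CPM. RA tumor 3 was the lowest for STMN3, at 69.8 CPM with the next at 75.1 CPM. Control tumor 4, which also had the highest fibroblast marker sum, stood apart in the other 3 groups. It was at 26.4 CPM for TUBG2 with the next at 22.5 CPM, at 26.6 CPM for STMN4 with the next at 32.5 CPM, and at 374 CPM for DPYSL2 with the next at 432 CPM.

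The RA effect in tumors differed from the 6-day effect in cells for 16 genes by the test of the difference. All 16 were also called at 6 days in cells, from libraries that this test shares, so the differences largely restate those calls. As tumor minus cell log2 fold changes, the differences among genes that rose in cells were −4.58 for TUBB4A, −2.70 for STMN4, −1.93 for MAP6, −1.63 for MAP7, −1.45 for TUBA1A, −1.38 for DCX, −1.33 for STMN2, −1.31 for CRMP1, −1.26 for MAPT and −1.07 for GAP43. Among tubulins that fell in cells they were 1.56 for TUBA8, 1.51 for TUBA1B, 1.21 for TUBA1C, 1.14 for TUBB6, 1.11 for TUBG1 and 1.02 for TUBB4B. Of these calls 5 were lost in some alternative. TUBB4B was at 0.91 with upper-quartile scaling, 0.99 with total counts only, 0.998 without DMSO library 2 and 0.92 without RA tumor 4. TUBG1 was at 0.99 with upper-quartile scaling, and GAP43 at −0.97 with no filter on low counts and −0.99 without RA tumor 1. MAP7 (−1.40 without DMSO library 1 and −1.38 without ATRA 6-day library 1) and TUBA8 (1.32 without ATRA 6-day library 1) no longer had an FDR under 0.05. Compound, time, growth condition and kit differed together here and cannot be told apart.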

How the results depend on the processing

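With the FDR and no fold threshold, the counts of genes higher and lower were 6 and 11 at 1 day, 10 and 11 at 3 days, 19 and 13 at 6 days, 14 and 8 from 1 to 3 days, 20 and 11 from 3 to 6 days, 10 and 18 in control tumors against DMSO, and 13 and 16 for the difference of effects, and 10 were higher in RA tumors. With paralogs summed, 3 genes were lower at 6 days, 1 was lower from 3 to 6 days and 3 differed upwards between tumors and cells. The sum of TUBA1A, TUBA1B and TUBA1C was at 0.51 at 6 days, 0.24 from 3 to 6 days and −0.30 for the difference of effects, and that of TUBG1 and TUBG2 at −0.96, −0.73 and 0.97, so neither sum was called. Upper-quartile scaling gave 3 lower at 6 days. The gain of TUBB3's share at 6 days was 14.5 points from raw counts and 10.3 with all exons as length, and that in RA tumors was 1.76 points with all exons.

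Leaving out 1 library at a time gave 2 to 12 genes higher by the FDR alone in RA tumors and 0 to 1 higher from 1 to 3 days, the 1 without ATRA 1-day library 2. It gave 11 to 12 higher and 5 to 6 lower at 6 days, 7 to 9 higher and 3 to 4 lower from 3 to 6 days, and 5 to 6 and 9 to 10 for the difference of effects. Where this left a group of cells with 1 library, that library was assumed to vary like the others. None of the 10 genes higher in RA tumors kept an FDR under 0.05 in every alternative. CRMP1 and TUBB3 lost it only with the replicate block, and each of the rest lost it without some single tumor. Of 74 single-gene results 50 kept their side of the threshold throughout, 83 of their values lost it and 0 reversed.

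Replicate numbers did not pair the samples: same-numbered libraries correlated by −0.0250 to 0.0115 in cells and −0.334 to 0.108 in tumors. With the replicate block, 1 gene was higher by the FDR alone in RA tumors. A block over all 17 libraries was not fitted. The cause of these changes was not tested.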
